A study of Mus musculus with 30 samples.

Results

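Tumour-associated macrophages sorted by their surface MHC class II were compared after 24 h of culture with 20 mM sodium L-lactate. The 10 libraries of that culture, 5 of MHC-IIlo cells and 5 of MHC-IIhi cells, were chosen by the group prefix of their columns in the deposited count matrix, out of 30 libraries in all. Both subsets came from subcutaneous 3LL-R tumours, a line of Lewis lung carcinoma, grown in WT mice of the C57BL/6 strain, and each cultured library was made from 250000 sorted cells. The other 20 libraries held the same subsets after 24 h without lactate (5 libraries each) and as fresh cells lysed straight after the sort (5 libraries each, from 30000 cells); they are used here only to set the lactate cultures beside them. RNA was extracted with a column kit and sequenced on a NextSeq instrument. Every fold change below is MHC-IIlo over MHC-IIhi.

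MHC class II molecules show peptides from engulfed material to CD4 T cells, and their genes are switched on together by the coactivator CIITA. Macrophages of transplanted mouse tumours vary in class II from low to high; the low cells are known for their place in poorly oxygenated regions and for genes of alternative activation, and the high cells for genes of antigen presentation and inflammation. Lactate is the end product of glycolysis, builds up in tumours, and enters and leaves cells through proton-coupled monocarboxylate carriers.

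The sort used surface MHC-II, so a class II difference between the subsets is in part what the gate selected. The labels call the libraries biological replicates but tie none to an animal, and the numbers in the matrix headers differ from those in the labels, so each cultured column was assigned to its group only and p-values measure the spread between these samples. In bulk RNA, fewer cells of a type and less RNA per cell cannot be told apart. Libraries held 18752181 to 31481548 counts in MHC-IIlo and 16965012 to 30135127 counts in MHC-IIhi. On the first principal component, with 45% of the variance, the subsets parted; the second, with 20%, set MHC-IIlo library 5 apart from the other 9. In that library the 50 most abundant genes took 16.1% of counts, against 23.7 to 25.5% in the other MHC-IIlo libraries, and its scaling factor was 1.28, against 0.933 to 1.03. It lay above the other 4 MHC-IIlo libraries in 4898 genes and below them in 4460; the next highest counts, for library 1, were 3419 and 3214. Results are therefore given with it, and list counts and the calls of named genes also without it where these differ. Fits that take the header number as a block stand with the processing alternatives and are left out where the settings that end a call are listed. Levels are CPM, counts scaled to library size, listed in the order of the header numbers 1, 3, 4, 5 and 6, and a value in brackets after a gene is its log2 fold change. A gene passed where edgeR's quasi-likelihood test gave a Benjamini-Hochberg adjusted p under 0.05 over all genes tested.

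Macrophage genes were abundant in both subsets. Adgre1, which encodes the macrophage surface protein F4/80, measured 839, 806, 838, 597 and 597 CPM in the MHC-IIlo libraries, against 1339, 1003, 848, 803 and 683 CPM in the MHC-IIhi libraries, with overlapping groups (log2 fold change -0.35 ± 0.18 (SE), adjusted p = 0.175). Csf1r, the receptor for the growth factor that macrophages depend on, measured 726, 528, 457, 161 and 473 CPM in the MHC-IIlo libraries, against 1556, 1499.9, 1188, 1011 and 1263 CPM in the MHC-IIhi libraries. The Csf1r groups did not overlap and the gene was lower in MHC-IIlo (log2 fold change -1.48 ± 0.27 (SE), adjusted p = 4.3e-04). Of 17 macrophage markers, 5 were higher in MHC-IIlo and 4 lower, among 13593 genes tested of which 9.15% were higher and 13.3% lower; without library 5, 6 were higher and 4 lower, and 2 were higher with the 10 lactate libraries fitted alone. The higher ones included the haemoglobin scavenger receptor Cd163 (3.24, adjusted p = 1.3e-04) and the endosomal glycoprotein Cd68 (0.80, adjusted p = 0.0122), and the lower ones the integrin chain Itgam (-0.82, adjusted p = 0.00688) and the transcription factor Maf (-1.05, adjusted p = 0.0214). The call of Cd68 was lost with the 10 lactate libraries fitted alone (0.82). The call of Maf was lost without MHC-IIhi 1 (-0.91) or MHC-IIlo 4 (-0.93), with no filter on low counts (-1.03), and with the 10 lactate libraries fitted alone (-1.04).

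After culture with lactate, 3046 of 13593 genes differed between the subsets, 1244 higher and 1802 lower in MHC-IIlo, and 4670 had an unadjusted p under 0.05. The median log2 fold change over all genes was 0.02. By fitted values, the differences were uneven in size: 49 genes were more than 4-fold higher in MHC-IIlo and 357 more than 4-fold lower, and 4 were more than 8-fold higher against 190 more than 8-fold lower. The 5 libraries of each group did not overlap in 600 genes with MHC-IIlo above (4.41% of those tested) and in 1130 with MHC-IIlo below (8.31%). Without MHC-IIlo library 5, 1607 genes were higher (11.7% of 13719 tested) and 1861 lower (13.6%). On the deposited FPKM values, log2(FPKM + 1) with limma, the split turned: 1785 higher and 1332 lower, so that 57.3% of calls were higher, against 40.8% on counts.

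Among well-expressed genes whose groups did not overlap, the largest increases in MHC-IIlo were of Fcgrt, Ccl6, Gprc5b, Folr2, Syngr1, Apoe, Rnase4, Rragd, Scamp5, Atp6v0d2, Serpinb6a and Dio2. Fcgrt (chr7:45092993-45103822, GRCm38), the neonatal Fc receptor that recycles IgG and albumin, measured 67.3, 124, 190.0, 29.1 and 104 CPM in the MHC-IIlo libraries, against 14.8, 21.95, 19.3, 10.6 and 18.1 CPM in the MHC-IIhi libraries. Every MHC-IIlo library lay above every MHC-IIhi library, and library 5 was the lowest of its group (log2 fold change 2.60 ± 0.38 (SE), adjusted p = 3.7e-05). The orphan receptor Gprc5b (2.23, adjusted p = 1.2e-05), the synaptogyrin Syngr1 (2.16, adjusted p = 2.8e-06), the secreted ribonuclease Rnase4 (2.03, adjusted p = 5.1e-05), the lysosomal Rag GTPase Rragd (1.98, adjusted p = 8.4e-06), the vesicle protein Scamp5 (1.94, adjusted p = 1.6e-05), the protease inhibitor Serpinb6a (1.72, adjusted p = 2.8e-07) and the thyroid hormone activating deiodinase Dio2 (1.70, adjusted p = 3.6e-06) were also higher in MHC-IIlo. The largest decreases were of Ccr7, Ccl22, H2-Eb1, H2-Aa, Il4i1, H2-Ab1, Cd74, Cytip, Mmp25, Pdcd1lg2, Cacnb3 and Il1b. Cytip, a scaffold that binds cytohesin in activated leukocytes, measured 5.203, 2.48, 1.47, 2.63 and 1.58 CPM in the MHC-IIlo libraries, against 130.4, 64.6, 59.5, 81.6 and 92.0 CPM in the MHC-IIhi libraries, with all MHC-IIlo libraries far below (log2 fold change -5.0 ± 0.37 (SE), adjusted p = 9.0e-09). The membrane-anchored protease Mmp25 (-4.73, adjusted p = 2.1e-07) and the calcium channel subunit Cacnb3 (-4.1, adjusted p = 1.2e-07) were lower too.

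**Figure D1:**
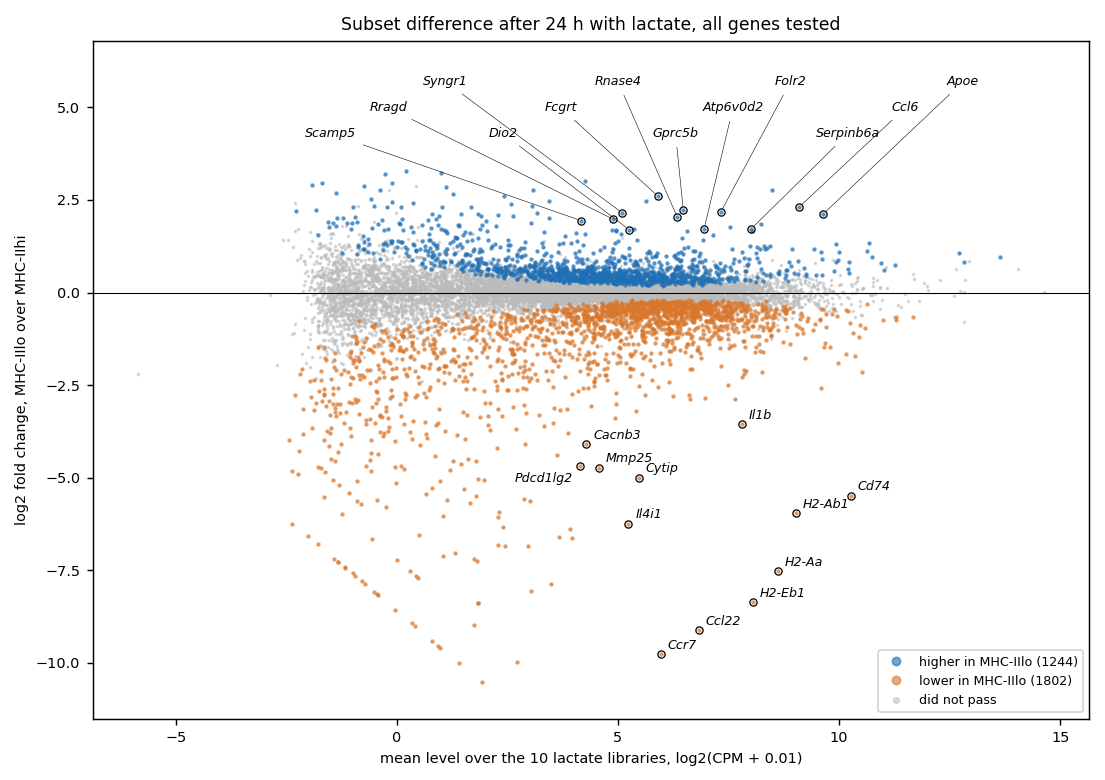
Each point is 1 of 13593 genes, with its mean level over the 10 lactate libraries on the x axis, as log2(CPM + 0.01), and its log2 fold change, MHC-IIlo over MHC-IIhi, on the y axis; blue genes were higher and orange genes lower in MHC-IIlo, and circles mark the 12 named genes in each direction. Among the circled genes Ccr7 is the lowest, at -9.77, and Fcgrt the highest, at 2.60.

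**Figure D2:**
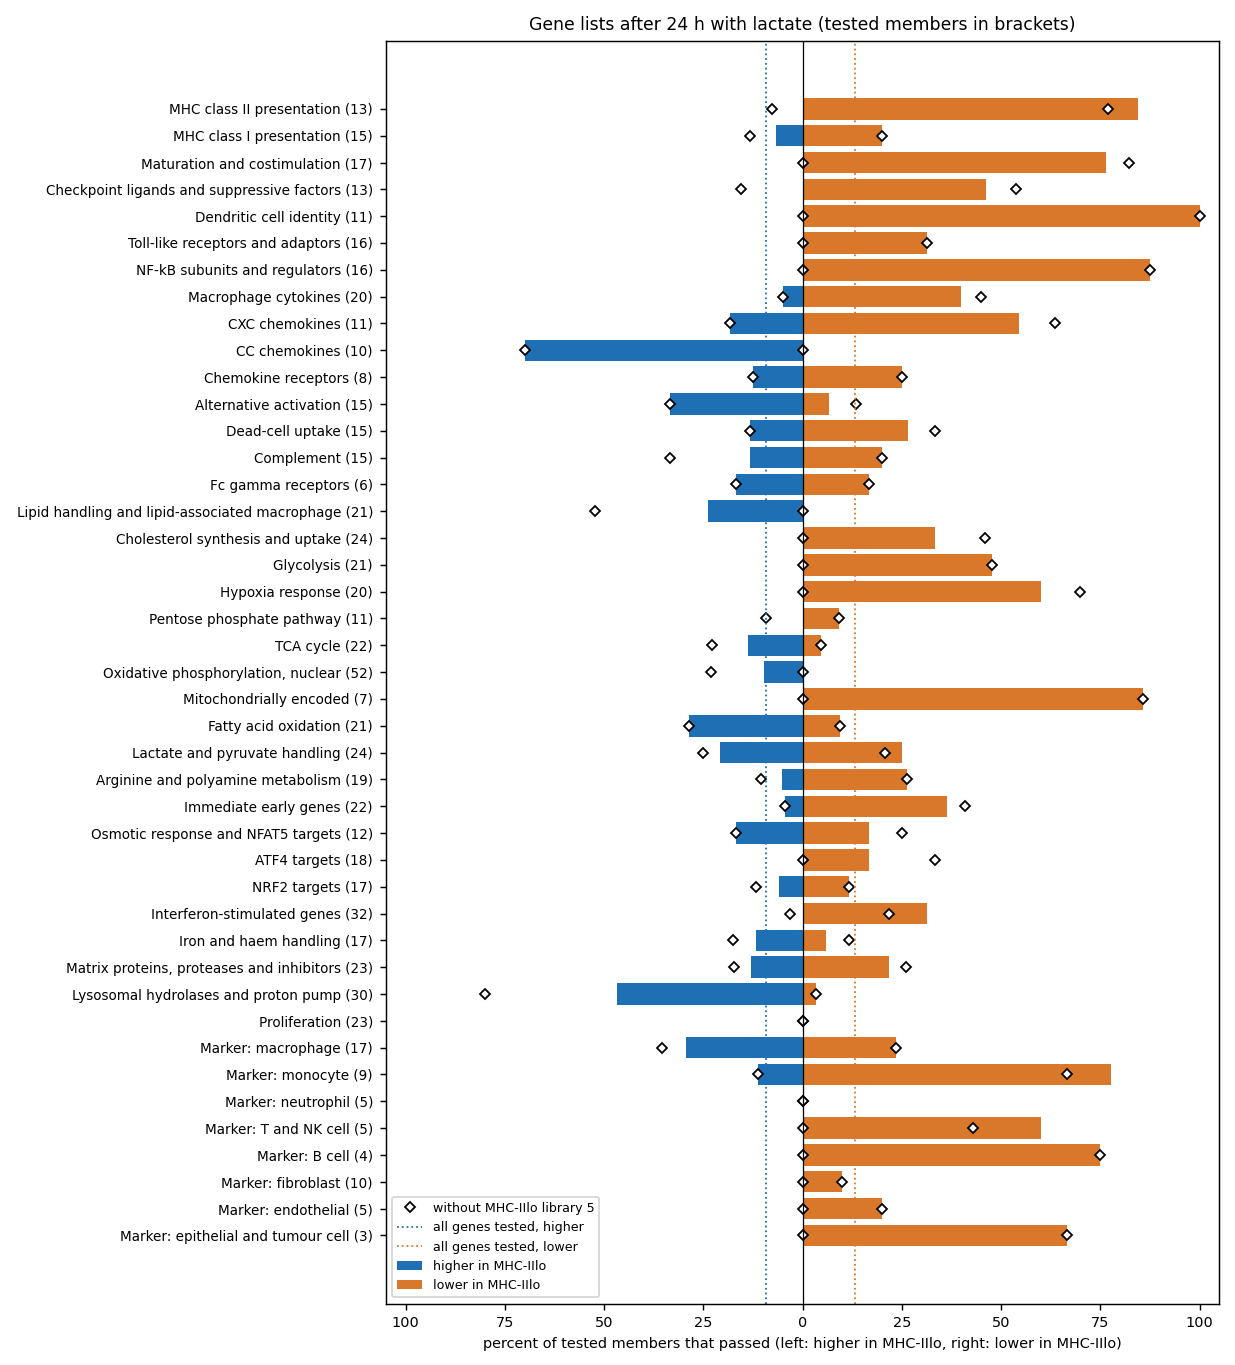
For each gene list, the bar to the left is the percentage of tested members higher in MHC-IIlo after culture with lactate and the bar to the right the percentage lower; dotted lines mark the shares among all genes tested, 9.15% higher and 13.3% lower, and diamonds give the shares without MHC-IIlo library 5. All 11 tested dendritic cell identity genes were lower, while 14 of 30 lysosomal genes were higher, a number that is 24 without library 5.

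The class II presentation genes were lower in MHC-IIlo as a group, the difference nearest to the sort itself. Of 13 genes, all tested, 11 were lower and none higher, with a median log2 fold change of -5.29, or -4.98 with H2-Eb2 at its bound (1 higher and 10 lower without library 5). H2-Ab1 (chr17:34263209-34269418), the beta chain of the I-A molecule, measured 16.01, 22.99, 21.5, 7.59 and 14.2 CPM in the MHC-IIlo libraries, against 1325, 919, 1079, 813 and 963 CPM in the MHC-IIhi libraries (log2 fold change -5.95 ± 0.45 (SE), adjusted p = 1.1e-08). Its partner H2-Aa (chr17:34282744-34287827), the alpha chain, measured 6.40, 7.14, 3.70, 0.751 and 3.07 CPM in the MHC-IIlo libraries, against 1011, 724, 809.8, 610.0 and 730.0 CPM in the MHC-IIhi libraries (log2 fold change -7.52 ± 0.63 (SE), adjusted p = 4.7e-08). In both genes every MHC-IIlo library lay far below every MHC-IIhi library, and library 5 was the lowest of all 10. H2-Eb1 (chr17:34305877-34316199), the I-E beta chain, measured 1.69, 2.45, 1.75, 0.542 and 1.46 CPM in the MHC-IIlo libraries, against 731, 446, 505, 426 and 522 CPM in the MHC-IIhi libraries (log2 fold change -8.36 ± 0.70 (SE), adjusted p = 4.7e-08). C57BL/6 mice carry a defective I-E alpha chain gene and show no I-E on the surface, so this difference is in RNA. H2-Eb2, a further beta chain gene, had no count in any MHC-IIlo library, against 1.46, 1.06, 0.320, 0.769 and 0.263 CPM in the MHC-IIhi libraries, which makes it at least 31.6-fold lower (3 counts over the 5 libraries as the limit of a count of 0).

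Genes that regulate, chaperone and edit class II differed as well, but by unequal amounts. Ciita (chr16:10488178-10527564), the coactivator that switches on class II genes, measured 0.623, 0.238, 0.0474, 0 and 0.355 CPM in the MHC-IIlo libraries, against 36.7, 18.4, 20.5, 22.7 and 26.7 CPM in the MHC-IIhi libraries. MHC-IIlo library 5 had no Ciita count and the highest MHC-IIlo library was still below all MHC-IIhi libraries (log2 fold change -6.60 ± 0.53 (SE), adjusted p = 2.7e-08). Cd74, the invariant chain that guards the peptide groove, measured 57.8, 72.7, 79.7, 20.2 and 38.4 CPM in the MHC-IIlo libraries, against 3232, 2203, 2552, 1841 and 2145 CPM in the MHC-IIhi libraries. All 5 MHC-IIlo values stayed far below the MHC-IIhi range (log2 fold change -5.48 ± 0.44 (SE), adjusted p = 2.7e-08). The peptide-exchange factor H2-DM showed a smaller difference: H2-DMb1 had 10.6 to 21.8 CPM over the MHC-IIlo libraries, against 39.2 to 70.5 CPM over the MHC-IIhi libraries (log2 fold change -1.5 ± 0.22 (SE), adjusted p = 3.6e-05), and H2-DMb2 had 0 to 0.355 CPM over the MHC-IIlo libraries, against 3.097 to 7.15 CPM over the MHC-IIhi libraries (log2 fold change -5.29, adjusted p = 2.1e-08). These 2 genes are near-identical copies, so how reads were shared between them is uncertain. H2-DMa, their alpha chain, had a log2 fold change of -0.88 (adjusted p = 0.0492) with overlapping groups, a call that sits at the threshold. The editing inhibitor chains H2-Oa (-3.09, adjusted p = 1.3e-04) and H2-Ob (-3.88, adjusted p = 2.5e-05) were lower at levels near 1 CPM in MHC-IIhi. The protease Ctss, which trims the invariant chain, did not pass (0.01, adjusted p = 0.984), and neither did the thiol reductase Ifi30 (0.39, adjusted p = 0.332). Without library 5, Ifi30 was higher in MHC-IIlo (0.63, adjusted p = 0.0268), as it was with that library kept by limma voom (0.65, adjusted p = 0.0150). The call of H2-DMa was lost without MHC-IIhi 1 (-0.72), MHC-IIhi 3 (-0.90), MHC-IIhi 4 (-0.86), MHC-IIhi 5 (-0.95), MHC-IIhi 6 (-0.96), MHC-IIlo 1 (-0.81), MHC-IIlo 3 (-0.99), MHC-IIlo 5 (-0.63) or MHC-IIlo 6 (-0.89), with RLE size factors (-0.88), with no filter on low counts (-0.85), by limma voom (-0.61), with the 10 lactate libraries fitted alone (-0.86), and without MHC-IIlo 5 and no-lactate MHC-IIlo 3 (-0.64).

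Proximal promoters of class II genes carry an X box, bound by RFX factors, and a Y box, bound by NF-Y, to which CIITA docks; short forms of these were looked for in RefSeq promoter windows (GRCm38.p6, 250 bases before to 50 after the start). The Y-box form CTGATTGG was in 4 of the 10 class II list genes that had a window and in 4.1% of all 32851 windows, on either strand. Its core ATTGG, which lies within it, was in 8 of the 10 and in 37.4% of all windows, and the X-box form CTAGCAAC was in 3 of the 10 and in 1.32% of all. The 120 bases before the start are shown for the 4 genes with the full Y-box form, all of them lower in MHC-IIlo, with matches in capitals; H2-Aa is from chr17:34287824-34287943, minus strand, H2-Eb1 from chr17:34305747-34305866, plus strand, H2-Eb2 from chr17:34325555-34325674, plus strand, and H2-Oa from chr17:34092259-34092378, plus strand.
H2-Aa: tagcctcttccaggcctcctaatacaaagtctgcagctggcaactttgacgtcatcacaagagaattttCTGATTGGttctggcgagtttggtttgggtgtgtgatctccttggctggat
H2-Eb1: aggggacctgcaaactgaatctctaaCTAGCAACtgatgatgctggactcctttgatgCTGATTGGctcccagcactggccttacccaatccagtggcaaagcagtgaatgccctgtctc
H2-Eb2: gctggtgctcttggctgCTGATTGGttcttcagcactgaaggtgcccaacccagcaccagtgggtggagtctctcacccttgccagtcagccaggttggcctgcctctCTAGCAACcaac
H2-Oa: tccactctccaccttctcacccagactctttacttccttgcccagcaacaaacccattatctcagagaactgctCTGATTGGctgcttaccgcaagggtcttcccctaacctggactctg
In H2-Eb1 the X-box form lies before the Y-box form, but in H2-Eb2 it lies after it. Here and in the motif searches below, a gene with several windows counted if any of them matched, and shares are per window. A match only says that these letters are in the window, and no binding was measured.

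MHC class I presentation, which shows peptides from within the cell to CD8 T cells, differed in few genes. Of 15 genes, 1 was higher and 3 were lower in MHC-IIlo, with a median of -0.10, near the all-gene median (2 higher and 3 lower without library 5). The shares among all genes tested were 9.15% higher and 13.3% lower. Nlrc5 (chr8:94472763-94527272), the class I counterpart of Ciita, measured 111, 69.7, 75.8, 68.1 and 89.2 CPM in the MHC-IIlo libraries, against 289, 151, 162, 195 and 163 CPM in the MHC-IIhi libraries. The groups did not overlap (log2 fold change -1.21 ± 0.19 (SE), adjusted p = 6.9e-05). The immunoproteasome subunit Psmb9 (-0.84, adjusted p = 0.00449) and the peptide transporter subunit Tap1 (-0.59, adjusted p = 0.0174) were lower, and the peptide-trimming enzyme Erap1 (0.39, adjusted p = 0.0157) was higher. The call of Tap1 was lost without MHC-IIhi 1 (-0.44), and with the 10 lactate libraries fitted alone (-0.57). Tap1 was at -0.38 by limma voom. The call of Erap1 was lost without MHC-IIhi 5 (0.34), MHC-IIhi 6 (0.34) or MHC-IIlo 4 (0.34), and with the 10 lactate libraries fitted alone (0.40). The class I heavy chains H2-K1 (0.08) and H2-D1 (0.35) did not pass (adjusted p = 0.806 and 0.216), and H2-D1 was higher without library 5 (0.50, adjusted p = 0.0350).

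Maturation and costimulation genes were lower in MHC-IIlo. Of 17 tested, 13 were lower and none higher, with a median of -1.5 (0 higher and 14 lower of 17 without library 5). Ccr7 (chr11:99144196-99155077), the receptor that guides mature dendritic cells to lymph nodes, measured 0.133, 0.306, 0.0474, 0 and 0.158 CPM in the MHC-IIlo libraries, against 216, 88.5, 75.2, 116 and 127 CPM in the MHC-IIhi libraries. Every MHC-IIlo value was below 1 CPM and every MHC-IIhi value far above it (log2 fold change -9.77 ± 0.78 (SE), adjusted p = 2.6e-08). Ccl22 (chr8:94745590-94751699), a ligand of CCR4 that attracts regulatory T cells, measured 0.534, 0.340, 0.142, 0.584 and 0.394 CPM in the MHC-IIlo libraries, against 298, 200.4, 127, 244 and 259 CPM in the MHC-IIhi libraries (log2 fold change -9.12 ± 0.48 (SE), adjusted p = 1.6e-10). Il4i1 (chr7:44816370-44840809), a secreted amino acid oxidase, measured 1.42, 0.918, 0.663, 0.918 and 0.946 CPM in the MHC-IIlo libraries, against 131, 45.8, 39.9, 78.4 and 74.2 CPM in the MHC-IIhi libraries, again without overlap (log2 fold change -6.24 ± 0.41 (SE), adjusted p = 2.5e-09). Ccl17, the other CCR4 ligand, had 3 counts over the 5 MHC-IIlo libraries, against 4.28, 3.42, 1.71, 6.76 and 4.22 CPM in the MHC-IIhi libraries. The actin bundler Fscn1 (-1.5, adjusted p = 8.9e-04), the costimulatory receptor Cd40 (-1.40, adjusted p = 5.0e-04), the CD28 ligand Cd80 (-0.76, adjusted p = 3.2e-04) and the adaptor Samsn1 (-2.77, adjusted p = 4.8e-07) were lower by less.

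Dendritic cell identity genes moved the same way: all 11 tested of 15 were lower, with a median of -3.08, and their summed level was 104 to 145 CPM in MHC-IIlo, against 259 to 535 CPM in MHC-IIhi. On the deposited FPKM, where fewer of the genes reach the minimum, 6 were lower. Flt3 (chr5:147330741-147400489), the receptor for the dendritic cell growth factor, measured 0.356, 0.0340, 0, 0 and 0.0788 CPM in the MHC-IIlo libraries, against 40.9, 14.8, 12.2, 22.2 and 21.5 CPM in the MHC-IIhi libraries (log2 fold change -7.87 ± 0.68 (SE), adjusted p = 7.6e-08). MHC-IIlo libraries 4 and 5 had no Flt3 count. The transcription factors Zbtb46 (-3.37, adjusted p = 2.2e-06), Batf3 (-5.13, adjusted p = 1.5e-05), Irf4 (-3.08, adjusted p = 5.1e-07) and Irf8 (-1.25, adjusted p = 1.7e-05) and the integrin chain Itgax (-2.30, adjusted p = 2.2e-06) were lower. Irf8 stayed abundant in both subsets, with 83.3 to 129 CPM over the MHC-IIlo libraries, against 175 to 378 CPM over the MHC-IIhi libraries. Cd209a, Clec9a and Xcr1, which mark dendritic cell subsets, were too low in the cultured libraries to be tested. These markers moved with the class II, maturation and cytokine results, and their part in those results was not tested.

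Genes of checkpoint ligands and suppressive factors were 0 higher and 6 lower of 13 tested, with a median of -1.40, and 2 higher and 7 lower without library 5. The genes that passed only without that library were Ptgs2, on the lower side, and Havcr2 (0.54, adjusted p = 0.00221) and Entpd1 (0.56, adjusted p = 0.0273), on the higher side. Havcr2 encodes the receptor TIM-3 and Entpd1 the ectoenzyme CD39. Pdcd1lg2, which encodes the PD-1 ligand PD-L2, measured 1.38, 1.70, 1.56, 0.292 and 1.66 CPM in the MHC-IIlo libraries, against 48.0, 29.3, 22.6, 33.7 and 35.7 CPM in the MHC-IIhi libraries (log2 fold change -4.67 ± 0.32 (SE), adjusted p = 2.9e-09). The PD-L1 gene Cd274 did not pass (-0.01, adjusted p = 0.969). Nos2 (chr11:78920787-78960254), the inducible nitric oxide synthase, measured 146, 549.9, 817, 727 and 483 CPM in the MHC-IIlo libraries, against 1394, 1999, 2497, 2455 and 3632 CPM in the MHC-IIhi libraries (log2 fold change -2.14 ± 0.35 (SE), adjusted p = 1.3e-04). Arg1 (chr10:24915208-24927470), the arginase that competes with it for arginine, measured 628, 993, 561, 324 and 575 CPM in the MHC-IIlo libraries, against 1445, 2559, 1796, 2480.3 and 1787 CPM in the MHC-IIhi libraries (log2 fold change -1.71 ± 0.30 (SE), adjusted p = 2.7e-04). Both arginine-using enzymes were abundant in both subsets, and in neither did the groups overlap. The cytokine Il10 (-3.22, adjusted p = 1.6e-05) and the adenosine-making ectoenzyme Nt5e (-2.23, adjusted p = 2.7e-05) were lower. Ptgs2, the inducible cyclooxygenase, measured 18.5, 31.9, 66.4, 349.6 and 36.7 CPM in the MHC-IIlo libraries, against 81.6, 124, 272, 184 and 663 CPM in the MHC-IIhi libraries. It did not pass with library 5, whose value was above every other MHC-IIlo value (-1.40, adjusted p = 0.157), and was lower without it (-2.78, adjusted p = 0.00178). With library 5 kept, it also passed by limma voom with quality weights (-2.51, adjusted p = 5.2e-04).

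**Figure D3:**
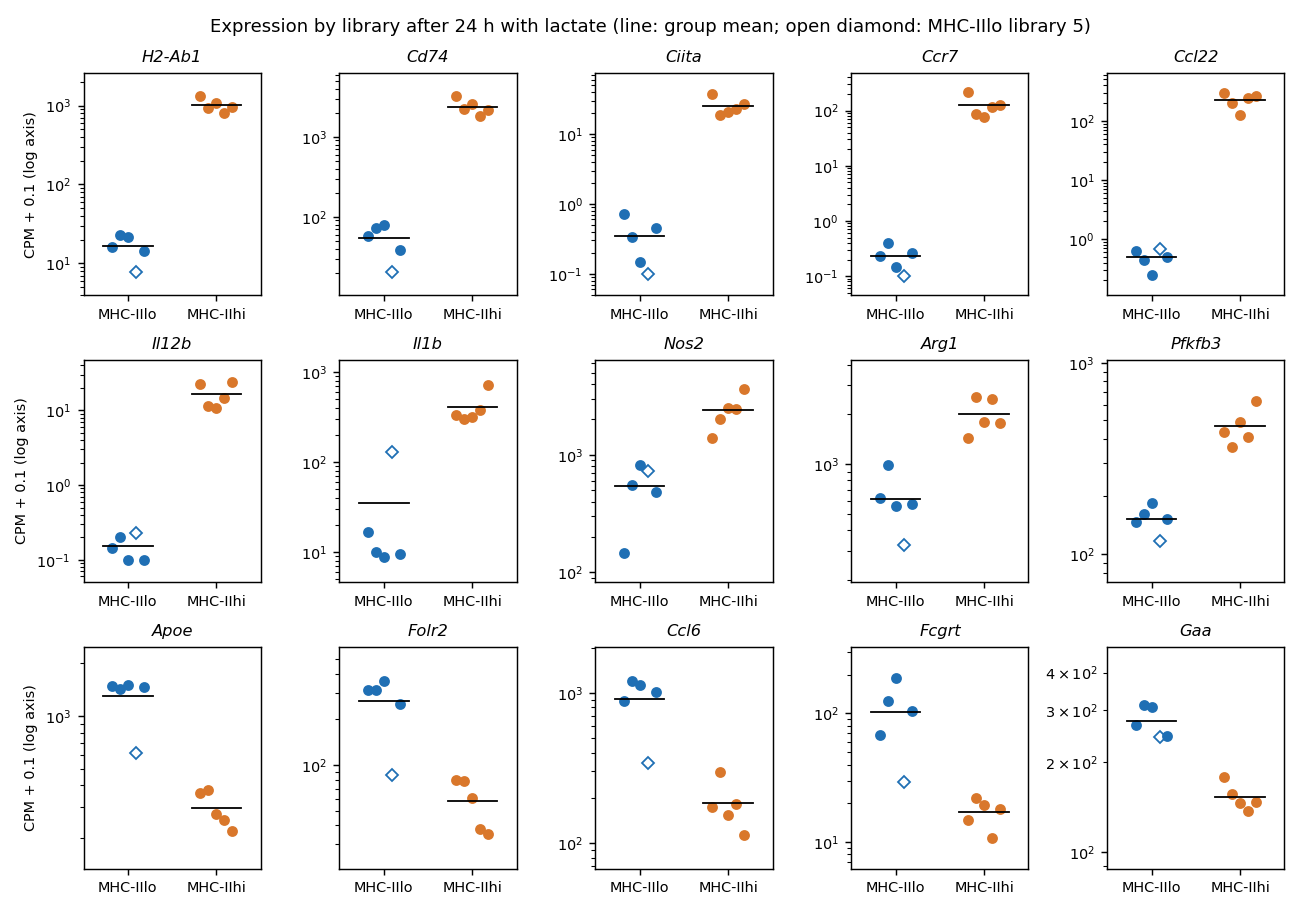
Each panel gives 1 gene's level in the 5 MHC-IIlo and 5 MHC-IIhi libraries after culture with lactate, as CPM + 0.1 on a log axis; lines are group means and the open diamond is MHC-IIlo library 5. The groups stand apart in all 15 genes, with MHC-IIlo below in the upper rows and above in the bottom row, and the diamond lies far above the other MHC-IIlo points in Il1b.

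Genes of NF-kB, the transcription factor family behind much inflammatory gene expression, were lower in MHC-IIlo: 14 of 16, with none higher and a median of -0.96. Birc3 (chr9:7848699-7873186), an antiapoptotic ubiquitin ligase, measured 61.2, 59.6, 66.7, 63.4 and 60.2 CPM in the MHC-IIlo libraries, against 162, 121, 140.0, 127 and 153 CPM in the MHC-IIhi libraries. The 5 values of each group lay close together and far from the other group (log2 fold change -1.18 ± 0.09 (SE), adjusted p = 2.3e-08). The subunits Rel (-1.3, adjusted p = 5.0e-08) and Nfkb1 (-0.76, adjusted p = 6.1e-05), the adaptor Traf1 (-1.40, adjusted p = 1.1e-05) and the inhibitor Nfkbia (-0.77, adjusted p = 0.001) were lower. Rela (-0.26, adjusted p = 0.108) and Nfkbib (-0.30, adjusted p = 0.225) did not pass. Of the Toll-like receptors and adaptors that feed NF-kB, 5 of 16 were lower and none higher, with a median of -0.60. They were the kinase-dead brake Irak3 (-1.47, adjusted p = 5.7e-06), the adaptor Myd88 (-0.89, adjusted p = 1.7e-04), the lipopolysaccharide co-receptor Cd14 (-1.38, adjusted p = 3.5e-04), the DNA sensor Tlr9 (-1.73, adjusted p = 0.00152) and Tlr2 (-0.67, adjusted p = 0.00578).

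Cytokine genes followed in part: 1 higher and 8 lower of 20 tested passed, with a median of -0.58 (1 higher and 9 lower without library 5). Il12b (chr11:44400063-44414033), the shared subunit of interleukins 12 and 23, measured 0.0445, 0.102, 0, 0.125 and 0 CPM in the MHC-IIlo libraries, against 22.1, 11.2, 10.51, 14.6 and 23.7 CPM in the MHC-IIhi libraries. MHC-IIlo libraries 4 and 6 had no count (log2 fold change -8.05 ± 0.54 (SE), adjusted p = 2.8e-09). Its partner Il12a had 0 to 0.292 CPM over the MHC-IIlo libraries, against 1.92 to 6.15 CPM over the MHC-IIhi libraries (log2 fold change -5.1 ± 0.53 (SE), adjusted p = 6.6e-07), and -5.85 without library 5. Il1b (chr2:129364570-129371139) measured 16.6, 9.97, 8.57, 129 and 9.30 CPM in the MHC-IIlo libraries, against 329, 299, 318, 374 and 726 CPM in the MHC-IIhi libraries (log2 fold change -3.56 ± 0.67 (SE), adjusted p = 6.0e-04). Library 5 held many times more Il1b than the other MHC-IIlo libraries, and without it the log2 fold change was -5.2 (adjusted p = 9.3e-08). Il6 measured 0.0445, 0.408, 0.758, 15.4 and 0.276 CPM in the MHC-IIlo libraries, against 17.8, 8.27, 20.4, 18.1 and 33.8 CPM in the MHC-IIhi libraries, so that library 5 lay within the MHC-IIhi range (log2 fold change -2.54 ± 0.81 (SE), adjusted p = 0.0285). The Il6 value was -5.71 without library 5 (adjusted p = 3.8e-07). The call of Il6 was lost without MHC-IIhi 6 (-2.26), MHC-IIlo 3 (-2.25), MHC-IIlo 4 (-2.30) or MHC-IIlo 6 (-2.24), with no filter on low counts (-2.55), and with the 10 lactate libraries fitted alone (-2.54). It was at -5.48 by limma voom. Tnf (-1.14, adjusted p = 1.5e-04) was lower. Il1rn, the secreted antagonist of interleukin 1, was abundant and higher in MHC-IIlo, with 1146 to 3974 CPM over the MHC-IIlo libraries, against 974 to 1436 CPM over the MHC-IIhi libraries (log2 fold change 0.96 ± 0.24 (SE), adjusted p = 0.00543).

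The lists of CXC and CC chemokines parted. Of 11 CXC chemokines tested, 2 were higher and 6 lower in MHC-IIlo, with a median of -1.03 (2 higher and 7 lower without library 5); 3 were lower with no filter on low counts or with the 10 lactate libraries fitted alone. Cxcl3 (chr5:90786103-90789600), a neutrophil attractant, measured 375, 325, 236, 857 and 337 CPM in the MHC-IIlo libraries, against 1131, 1517, 1511, 1625 and 2212 CPM in the MHC-IIhi libraries. Library 5 was the highest MHC-IIlo library and still below all MHC-IIhi libraries (log2 fold change -1.91 ± 0.30 (SE), adjusted p = 1.1e-04). Its relatives Cxcl1 (-1.02, adjusted p = 0.111) and Cxcl2 (-1.25, adjusted p = 0.0559) did not pass in edgeR with library 5. Without it both were lower, Cxcl1 (-1.93, adjusted p = 1.4e-04) and Cxcl2 (-2.20, adjusted p = 5.1e-05). With library 5 kept, Cxcl1 passed by limma voom (-1.94, adjusted p = 3.0e-05) and on the deposited FPKM (-1.3, adjusted p = 0.0430). Cxcl2 passed by limma voom (-2.14, adjusted p = 2.6e-05), on FPKM (-1.51, adjusted p = 0.0298), by DESeq2 (-1.27, adjusted p = 0.0392), with the fresh libraries added to the model (-1.25, adjusted p = 0.0480) and without MHC-IIhi 1 (-1.41, adjusted p = 0.0437). The T cell attractant Cxcl10 (-1.60, adjusted p = 0.00609) was lower. The platelet-type chemokines Ppbp (1.73, adjusted p = 8.4e-04) and Pf4 (1.1, adjusted p = 0.00362) were higher, with library 5 overlapping MHC-IIhi in both.

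Of the CC chemokine list 10 members were tested, of which 7 were higher in MHC-IIlo and none lower, with a median of 1.28. Without library 5, 7 were higher. The list leaves out the CC chemokines Ccl22 (-9.12, adjusted p = 1.6e-10) and Ccl17 (-7.10, adjusted p = 2.4e-07). Both were lower in MHC-IIlo and were given above with the maturation genes. Ccl6 (chr11:83587882-83593087), a chemokine of mouse macrophages that acts through CCR1, measured 877, 1196, 1123, 339 and 1016 CPM in the MHC-IIlo libraries, against 174, 297, 153, 182 and 114 CPM in the MHC-IIhi libraries (log2 fold change 2.31 ± 0.28 (SE), adjusted p = 4.0e-06). Ccl2 (chr11:82035571-82037453), the main attractant of CCR2-bearing monocytes, measured 1236, 1661, 1564, 1095 and 1382 CPM in the MHC-IIlo libraries, against 656, 715, 731, 741 and 402 CPM in the MHC-IIhi libraries, with no overlap (log2 fold change 1.1 ± 0.17 (SE), adjusted p = 6.1e-05). Its neighbours Ccl7 (1.26, adjusted p = 4.0e-04), Ccl8 (2.77, adjusted p = 8.5e-05) and Ccl12 (1.59, adjusted p = 0.0190), and Ccl9 (1.3, adjusted p = 0.00280) and Ccl24 (2.84, adjusted p = 0.00108), were higher too. Ccl8 had 77.0 CPM in library 5, within the MHC-IIhi range, and 446 to 1079 CPM in the other MHC-IIlo libraries. The call of Ccl12 was lost without MHC-IIhi 6 (1.39) or MHC-IIlo 4 (1.2), with no filter on low counts (1.62), with the 10 lactate libraries fitted alone (1.61), and on the deposited FPKM (1.46 to 1.48). Of 8 chemokine receptors tested, 1 was higher and 2 were lower, with a median of -0.01, beside 9.15% higher and 13.3% lower among all genes. Ccr2 itself had 0.876 to 4.22 CPM over the MHC-IIlo libraries, against 13.6 to 38.9 CPM over the MHC-IIhi libraries (log2 fold change -3.14 ± 0.46 (SE), adjusted p = 4.2e-05), and Cxcr4 (0.74, adjusted p = 0.0342) was the receptor gene on the higher side. The call of Cxcr4 was lost without MHC-IIhi 1 (0.73), MHC-IIhi 4 (0.72), MHC-IIhi 5 (0.68), MHC-IIlo 3 (0.65), MHC-IIlo 4 (0.77) or MHC-IIlo 6 (0.58), with no filter on low counts (0.77), and with all 30 libraries in the fit (0.75).

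The NF-kB motif GGAATTTCC was looked for in the same RefSeq windows, on both strands. It was in 4 of the 10 CXC chemokine genes with a window, in 2 of the 13 NF-kB genes with one, and in 0.317% of all windows. The 120 bases before the start are shown for Cxcl3 (chr5:90785981-90786100, plus strand) and for the inhibitor gene Nfkbia (chr12:55492648-55492767, minus strand), both lower in MHC-IIlo, with the match in capitals. In Nfkbia it is read on the other strand.
Cxcl3: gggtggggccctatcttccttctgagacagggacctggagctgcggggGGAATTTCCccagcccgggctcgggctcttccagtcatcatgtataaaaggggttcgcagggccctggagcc
Nfkbia: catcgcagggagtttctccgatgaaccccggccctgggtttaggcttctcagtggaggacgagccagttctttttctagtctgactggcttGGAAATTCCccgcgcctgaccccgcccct
Factor binding was not measured.

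Glycolysis and hypoxia genes were lower in MHC-IIlo where they passed. Of 21 glycolysis genes, 10 were lower and none higher, with a median of -0.50. Of 20 hypoxia response genes, 12 were lower and none higher, with a median of -0.93 (0 higher and 14 lower of 20 without library 5). Pfkfb3 (chr2:11471433-11554077), which makes the activator of phosphofructokinase, measured 147, 162, 184, 117 and 153 CPM in the MHC-IIlo libraries, against 435, 361, 490.1, 408 and 633 CPM in the MHC-IIhi libraries (log2 fold change -1.61 ± 0.14 (SE), adjusted p = 5.3e-08). The lowest MHC-IIhi library was well above the highest MHC-IIlo library. The aldolase Aldoc (-3.11, adjusted p = 3.5e-07), the phosphofructokinase subunit Pfkl (-0.88, adjusted p = 2.2e-05) and the hexokinase Hk1 (-0.74, adjusted p = 2.1e-04) were lower. Vegfa (chr17:46016993-46032377), the angiogenic factor induced by hypoxia, measured 64.0, 79.3, 99.2, 141 and 80.1 CPM in the MHC-IIlo libraries, against 102, 154, 197, 208 and 312 CPM in the MHC-IIhi libraries. Library 5 was the highest MHC-IIlo library and overlapped MHC-IIhi (log2 fold change -1.07 ± 0.25 (SE), adjusted p = 0.00457). The hypoxia-induced genes Ankrd37 (-2.19, adjusted p = 1.5e-05) and Nfil3 (-1.09, adjusted p = 2.1e-06) and the pyruvate dehydrogenase kinase Pdk1 (-1.1, adjusted p = 1.5e-04) were lower.

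Genes that carry, convert and sense lactate passed in both directions: 5 higher and 6 lower of 24 tested, with a median of 0.10 (6 higher and 5 lower without library 5). The shares among all genes tested were 9.15% higher and 13.3% lower. Only 2 were higher without MHC-IIhi 5, MHC-IIhi 6 or MHC-IIlo 6, with no filter on low counts, or with the 10 lactate libraries fitted alone. Ldha (chr7:46841475-46855627), the dehydrogenase chain that favours making lactate, measured 1505, 1867, 2018, 1388 and 1497 CPM in the MHC-IIlo libraries, against 1752, 2372, 2612, 2049 and 2480.1 CPM in the MHC-IIhi libraries. The groups overlapped and the gene lay just short of the threshold (log2 fold change -0.44 ± 0.16 (SE), adjusted p = 0.0509). It passed, lower in MHC-IIlo, without MHC-IIhi 1 (-0.52, adjusted p = 0.0297) or MHC-IIlo 4 (-0.53, adjusted p = 0.0303), by DESeq2 (-0.44, adjusted p = 0.0172), with the fresh libraries added to the model (-0.44, adjusted p = 0.0193) and by limma voom (-0.43, adjusted p = 0.023). Ldhb, the chain that favours using lactate, was near 1 CPM, with 0.584 to 1.67 CPM over the MHC-IIlo libraries, against 0.213 to 2.78 CPM over the MHC-IIhi libraries (-0.59, adjusted p = 0.488). Slc16a3 (chr11:120948480-120960868), the lactate exporter MCT4, measured 316, 394, 356, 332 and 291 CPM in the MHC-IIlo libraries, against 541, 707, 849, 671 and 872 CPM in the MHC-IIhi libraries (log2 fold change -1.11 ± 0.19 (SE), adjusted p = 1.9e-04). No MHC-IIlo library reached the MHC-IIhi range. Slc16a6, the related carrier MCT7, was higher, with 38.3 to 53.3 CPM over the MHC-IIlo libraries, against 16.9 to 26.6 CPM over the MHC-IIhi libraries (log2 fold change 1.0 ± 0.15 (SE), adjusted p = 6.8e-05). Gpr132, a proton- and lactate-sensing receptor, measured 7.69, 9.08, 5.92, 13.5 and 7.65 CPM in the MHC-IIlo libraries, against 66.0, 31.1, 39.6, 38.6 and 49.7 CPM in the MHC-IIhi libraries, without overlap (log2 fold change -2.36 ± 0.23 (SE), adjusted p = 3.1e-07).

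Of 19 arginine and polyamine genes tested, 1 was higher and 5 were lower, with a median of 0.06 (2 higher and 5 lower without library 5). Among all genes tested, 9.15% were higher and 13.3% lower, and the higher call is not read as a result about the list. Ass1 (chr2:31470207-31520672), which rebuilds arginine from citrulline, measured 33.9, 29.8, 32.4, 10.4 and 18.2 CPM in the MHC-IIlo libraries, against 218, 219, 124, 160.4 and 131 CPM in the MHC-IIhi libraries (log2 fold change -2.77 ± 0.32 (SE), adjusted p = 3.1e-06). The carrier Slc7a2 (-2.28, adjusted p = 1.3e-04) and the mitochondrial arginase Arg2 (-1.23, adjusted p = 2.6e-04) were lower with Arg1 and Nos2.

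Genes of the respiratory chain were counted by genome. Of 52 nuclear genes of oxidative phosphorylation, 5 were higher in MHC-IIlo and none lower, a share near the 9.15% of all genes (12 higher and 0 lower of 52 without library 5), with a median of 0.14. The number higher was 16 on the deposited FPKM, 17 by limma voom, 11 without MHC-IIhi 1, and 1 with the 10 lactate libraries fitted alone. The complex subunits Ndufa4 (0.57, adjusted p = 2.5e-05), Ndufa5 (0.53, adjusted p = 0.0149) and Atp5g1 (0.44, adjusted p = 0.0155) were among them. The call of Ndufa5 was lost with the 10 lactate libraries fitted alone (0.55). The call of Atp5g1 was lost with the 10 lactate libraries fitted alone (0.45). Of 7 genes of the mitochondrial genome tested, 6 were lower, with a median of -0.72; mt-Nd1 had 289.7 to 756 CPM over the MHC-IIlo libraries, against 1030.0 to 1332 CPM over the MHC-IIhi libraries (log2 fold change -1.37 ± 0.20 (SE), adjusted p = 4.2e-05), and mt-Co1 (-0.73, adjusted p = 0.00281) and mt-Nd4 (-0.66, adjusted p = 0.0131) were lower by less. The call of mt-Co1 was lost on the deposited FPKM (-0.15). The call of mt-Nd4 was lost on the deposited FPKM (-0.38). On the deposited FPKM, 1 of these 7 genes was lower. Mitochondrial counts were 0.28 to 0.623% of the total in MHC-IIlo libraries and 0.586 to 0.797% in MHC-IIhi libraries.

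Of the TCA cycle genes, 3 higher and 1 lower of 22 passed (5 higher and 1 lower without library 5), and 9 were higher on FPKM and 6 with all 30 libraries in the fit. Among them were the isocitrate dehydrogenase Idh2 (0.78, adjusted p = 4.1e-04), the succinate dehydrogenase subunit Sdha (0.39, adjusted p = 0.0215) and the citrate lyase Acly (-0.39, adjusted p = 6.5e-04). The call of Sdha was lost without MHC-IIhi 5 (0.35), MHC-IIhi 6 (0.33), MHC-IIlo 1 (0.34), MHC-IIlo 3 (0.37) or MHC-IIlo 4 (0.35), and with the 10 lactate libraries fitted alone (0.40). Of the fatty acid oxidation genes, 6 higher and 2 lower of 21 passed, with Decr1 (0.89, adjusted p = 0.00406) and Hadh (0.64, adjusted p = 0.0134) higher and the medium-chain dehydrogenase Acadm (-0.37, adjusted p = 0.00435) lower. In the pentose phosphate pathway 0 higher and 1 lower of 11 passed, the transketolase Tkt (-0.43, adjusted p = 0.0166) (1 higher and 1 lower without library 5). The call of Tkt was lost without MHC-IIhi 1 (-0.35), and with the 10 lactate libraries fitted alone (-0.42). The medians were 0.15 for the TCA cycle, 0.13 for fatty acid oxidation and 0.03 for the pentose phosphate pathway, and the TCA cycle and pentose phosphate shares were close to those of all genes.

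Lysosomal hydrolase and proton pump genes were higher in MHC-IIlo. Of 30, 14 were higher and 1 lower, with a median of 0.61, and 24 higher and 1 lower of 30 without library 5; 24 were also higher by limma voom. Gaa (chr11:119267887-119285454), the acid glucosidase that breaks down glycogen, measured 266, 312, 307, 244 and 245 CPM in the MHC-IIlo libraries, against 179, 157, 146, 137 and 148 CPM in the MHC-IIhi libraries. All MHC-IIlo libraries lay above all MHC-IIhi libraries (log2 fold change 0.84 ± 0.13 (SE), adjusted p = 8.1e-05). The pump subunits Atp6v0d2 (1.72, adjusted p = 1.7e-04) and Atp6v1h (0.91, adjusted p = 5.4e-05) were higher without overlap. The cathepsin gene Ctsb had 7867 to 20962 CPM over the MHC-IIlo libraries, against 6629 to 10694 CPM over the MHC-IIhi libraries (log2 fold change 0.95 ± 0.23 (SE), adjusted p = 0.00514). Ctsd, a further cathepsin gene, had 3369.7 to 12166 CPM over the MHC-IIlo libraries, against 3967 to 6204 CPM over the MHC-IIhi libraries (log2 fold change 0.82 ± 0.25 (SE), adjusted p = 0.0240). In both the groups overlapped through library 5 alone. The call of Ctsb was lost on the deposited FPKM (0.19). The call of Ctsd was lost without MHC-IIhi 5 (0.74), MHC-IIhi 6 (0.75), MHC-IIlo 1 (0.75), MHC-IIlo 3 (0.72) or MHC-IIlo 4 (0.78), with the 10 lactate libraries fitted alone (0.84), and on the deposited FPKM (0.19). Ctsc, the cathepsin that activates granule proteases, went the other way, with 99.8 to 332 CPM over the MHC-IIlo libraries, against 661 to 1225 CPM over the MHC-IIhi libraries (log2 fold change -1.77 ± 0.33 (SE), adjusted p = 4.6e-04).

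The motif TCACGTG, a form of the element bound by TFEB and its relatives in promoters of lysosomal genes, was in 8 of the 22 lysosomal genes with a RefSeq window and in 3.77% of all windows, both strands counted. It is in capitals in the 120 bases before the Ctsd start (chr7:142387828-142387947, minus strand), where matches on both strands overlap, and in bases 160 to 41 before the Gaa start (chr11:119267803-119267922, plus strand).
Ctsd: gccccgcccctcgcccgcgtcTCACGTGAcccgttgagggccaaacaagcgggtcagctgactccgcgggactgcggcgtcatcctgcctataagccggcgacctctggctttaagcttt
Gaa: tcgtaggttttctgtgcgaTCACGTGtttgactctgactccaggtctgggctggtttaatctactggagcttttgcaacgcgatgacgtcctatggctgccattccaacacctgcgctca
The promoter windows were not tested for activity.

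Lipid-associated macrophage genes that passed were all higher in MHC-IIlo: 5 of 21, or 11 without library 5 and 13 by limma voom, with a median of 0.40. Apoe (chr7:19696109-19699166), the apolipoprotein that carries cholesterol out of macrophages, measured 1487, 1420.4, 1502, 612 and 1462 CPM in the MHC-IIlo libraries, against 363, 378, 273, 253 and 220.4 CPM in the MHC-IIhi libraries. Library 5 held less Apoe than the other MHC-IIlo libraries, yet more than any MHC-IIhi library (log2 fold change 2.12 ± 0.22 (SE), adjusted p = 7.4e-07). The tetraspanin Cd63 (1.19, adjusted p = 5.2e-06), the glycoprotein Gpnmb (1.06, adjusted p = 0.00355), osteopontin Spp1 (1.12, adjusted p = 0.00529) and the lipoprotein receptor Scarb1 (0.43, adjusted p = 0.00414) were higher. Of 24 cholesterol synthesis and uptake genes, 8 were lower and none higher, with a median of -0.38 (0 higher and 11 lower without library 5); 5 were lower on FPKM, without MHC-IIhi 5 or without MHC-IIlo 3, and 13 by limma voom. They included Pmvk (-1.1, adjusted p = 1.3e-04) of the mevalonate pathway and the regulator Srebf2 (-0.60, adjusted p = 0.00849). The call of Srebf2 was lost on the deposited FPKM (-0.38 to -0.40).

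Of 15 alternative activation genes tested, 5 were higher and 1 lower, median -0.03 (5 higher and 2 lower without library 5). Passed or not, 8 had negative and 7 positive fitted values. The list leaves out Arg1, which was lower in MHC-IIlo as given above (-1.71, adjusted p = 2.7e-04). Folr2 (chr7:101839990-101845331), the folate receptor of resident macrophages, measured 311, 312, 356, 85.5 and 251 CPM in the MHC-IIlo libraries, against 79.1, 78.5, 60.3, 37.7 and 34.8 CPM in the MHC-IIhi libraries (log2 fold change 2.18 ± 0.30 (SE), adjusted p = 2.0e-05). Mrc1 (chr2:14229392-14332057), the mannose receptor CD206, measured 354, 290.5, 217, 105.1 and 325 CPM in the MHC-IIlo libraries, against 175, 135, 100.6, 155 and 124 CPM in the MHC-IIhi libraries. Library 5 lay within the MHC-IIhi range (log2 fold change 0.91 ± 0.23 (SE), adjusted p = 0.00723). The carbonyl reductase Cbr2 (3.02, adjusted p = 2.7e-05) and Cd163 (3.24, adjusted p = 1.3e-04) were higher by more, at lower levels. Fn1, fibronectin, was the lower list member (log2 fold change -2.88 ± 0.35 (SE), adjusted p = 4.5e-06). Its level was 27.8 to 108 CPM over the MHC-IIlo libraries, against 184 to 474 CPM over the MHC-IIhi libraries. Genes of dead-cell uptake had 2 higher and 4 lower of 15 tested, median 0.17 (2 higher and 5 lower without library 5). Beside 9.15% higher and 13.3% lower among all genes tested, these small counts are not read as a result about the list. Gas6 (chr8:13465374-13494535), which bridges dying cells to the receptors AXL and MERTK, measured 111, 93.7, 98.6, 21.02 and 95.2 CPM in the MHC-IIlo libraries, against 13.1, 26.4, 15.7, 10.9 and 9.70 CPM in the MHC-IIhi libraries, with library 5 inside the MHC-IIhi range (log2 fold change 2.47 ± 0.37 (SE), adjusted p = 6.0e-05). Its receptor Axl (-1.14, adjusted p = 0.00995), the bridging protein Mfge8 (-1.39, adjusted p = 0.00572) and the receptor Lrp1 (-0.88, adjusted p = 0.00160) were lower, while the receptor gene Mertk did not pass (0.23, adjusted p = 0.775).

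Of 15 complement genes, 2 were higher and 3 lower (5 higher and 3 lower of 15 without library 5, and 5 higher by limma voom), with a median of -0.03. Among all genes tested, 9.15% were higher and 13.3% lower. Set beside these shares, the small counts for complement, Fc gamma receptors and iron are not read as results about the lists. The C1q chains C1qa (1.22, adjusted p = 0.0141) and C1qc (1.09, adjusted p = 0.0338) were higher; C3 (-0.63, adjusted p = 0.00823) and the receptor chain Itgam were among the lower ones. The call of C1qa was lost with the 10 lactate libraries fitted alone (1.25). The call of C1qc was lost without MHC-IIhi 4 (0.99), MHC-IIhi 5 (1.01), MHC-IIhi 6 (0.91), MHC-IIlo 3 (1.01), MHC-IIlo 4 (0.90) or MHC-IIlo 6 (1.1), with no filter on low counts (1.12), and with the 10 lactate libraries fitted alone (1.12). The call of C3 was lost with the 10 lactate libraries fitted alone (-0.61). Fc gamma receptor genes passed both ways (1 higher and 1 lower of 6 tested, median -0.31), with the inhibitory receptor Fcgr2b at 131 to 291 CPM over the MHC-IIlo libraries, against 348 to 547 CPM over the MHC-IIhi libraries (log2 fold change -1.02 ± 0.21 (SE), adjusted p = 0.00111). Iron and haem genes had 2 higher and 1 lower of 17 tested, median -0.06 (3 higher and 2 lower without library 5), including the endosomal reductase Steap3 (0.68, adjusted p = 0.0167) on the higher side. The call of Steap3 was lost without MHC-IIhi 6 (0.58), MHC-IIlo 1 (0.56) or MHC-IIlo 3 (0.61), and with the 10 lactate libraries fitted alone (0.70). Matrix genes passed both ways, with 3 higher and 5 lower of 23 tested, median -0.51 (4 higher and 6 lower without library 5). The inhibitor Timp2 (1.67, adjusted p = 3.2e-05) and the urokinase gene Plau (1.26, adjusted p = 3.2e-05) were higher, and Tgfbi, a secreted adhesion protein, was lower, with 49.5 to 332 CPM over the MHC-IIlo libraries, against 1051 to 1677 CPM over the MHC-IIhi libraries (log2 fold change -2.58 ± 0.35 (SE), adjusted p = 2.0e-05), as were the crosslinking enzyme Lox (-2.59, adjusted p = 8.6e-05) and the membrane protease Mmp14 (-0.86, adjusted p = 0.00180).

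Of 22 immediate early genes, 1 was higher and 8 were lower, with a median of -0.40 (1 higher and 9 lower without library 5). Nr4a3 (chr4:48045153-48086447), an orphan nuclear receptor induced early after stimulation, measured 0.311, 0.170, 0.189, 0.834 and 0.276 CPM in the MHC-IIlo libraries, against 30.97, 18.1, 24.3, 31.1 and 44.3 CPM in the MHC-IIhi libraries (log2 fold change -6.38 ± 0.32 (SE), adjusted p = 1.1e-10). Every MHC-IIlo library was below 1 CPM. Junb (-0.83, adjusted p = 1.3e-06) and the antiproliferative gene Btg2 (-1.78, adjusted p = 9.0e-06) were lower. Of 32 interferon-stimulated genes, 10 were lower and none higher, with a median of -0.35; there were 1 higher and 7 lower without library 5, and 5 lower without MHC-IIhi 1. Examples were the regulator Irf1 (-0.95, adjusted p = 8.8e-04), the antiviral GTPase Mx2 (-1.01, adjusted p = 3.0e-04) and the guanylate-binding protein Gbp5 (-1.22, adjusted p = 0.00175).

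Stress and osmotic lists had few calls, set beside 9.15% higher and 13.3% lower among all genes tested. Such small counts are not read as results about the lists. Sodium lactate adds sodium as well as lactate, and the NFAT5 list of osmotic genes had 2 higher and 2 lower of 12 tested, median -0.01 (2 higher and 3 lower without library 5). The aldose reductase Akr1b3 (0.62, adjusted p = 0.0121) and the water channel Aqp1 (3.19, adjusted p = 8.4e-04) were higher and the betaine carrier Slc6a12 (-1.87, adjusted p = 0.00104) lower. ATF4 targets, induced by amino acid shortage, had 0 higher and 3 lower of 18 tested, median -0.10. They were the cystine carrier Slc7a11 (-2.15, adjusted p = 4.8e-05), the transcription factor Cebpb (-0.76, adjusted p = 7.1e-04) and the folate enzyme Mthfd2 (-0.81, adjusted p = 0.0292). The call of Mthfd2 was lost without MHC-IIhi 1 (-0.78), MHC-IIhi 4 (-0.78), MHC-IIhi 5 (-0.77), MHC-IIhi 6 (-0.78), MHC-IIlo 1 (-0.64), MHC-IIlo 3 (-0.73), MHC-IIlo 4 (-0.75) or MHC-IIlo 6 (-0.72), with no filter on low counts (-0.80), and with the 10 lactate libraries fitted alone (-0.80). Mthfd2 was at -1.26 without library 5, where 6 ATF4 targets were lower. NRF2 targets, of the antioxidant response, had 1 higher and 2 lower of 17 tested, median -0.12 (2 higher and 2 lower without library 5), with the glutathione reductase Gsr (-0.90, adjusted p = 4.7e-06) lower and the quinone reductase Nqo1 (0.59, adjusted p = 0.0243) higher. The call of Nqo1 was lost without MHC-IIhi 4 (0.50), MHC-IIhi 5 (0.51), MHC-IIlo 1 (0.52) or MHC-IIlo 5 (0.47), by limma voom (0.39), with the 10 lactate libraries fitted alone (0.60), and without MHC-IIlo 5 and no-lactate MHC-IIlo 3 (0.47).

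Markers of other cells were read beside these results. Of 9 monocyte markers tested, 7 were lower in MHC-IIlo and 1 higher (1 higher and 6 lower without library 5), and their summed level was 179 to 347 CPM in MHC-IIlo, against 728 to 1339 CPM in MHC-IIhi. Ly6c2, the surface antigen of classical monocytes, measured 25.7, 36.7, 34.4, 0.834 and 21.2 CPM in the MHC-IIlo libraries, against 271, 260.0, 127, 157 and 61.6 CPM in the MHC-IIhi libraries (log2 fold change -2.88 ± 0.69 (SE), adjusted p = 0.00491). Library 5 was near 0 and the other MHC-IIlo libraries stayed below all MHC-IIhi libraries. The proteoglycan Vcan (-2.11, adjusted p = 1.1e-06), Plac8 (-2.66, adjusted p = 0.00134) and haptoglobin Hp (-3.25, adjusted p = 2.9e-04) were lower with it. T and NK cell markers summed to 0.828 to 4.36 CPM in MHC-IIlo, against 4.74 to 11.1 CPM in MHC-IIhi, with 3 of 5 tested lower: Gzmb (-1.98, adjusted p = 0.00421), Cd4 (-2.29, adjusted p = 0.00607) and Trac (-3.02, adjusted p = 0.00169). The call of Trac was lost on unfiltered FPKM (-0.48). The call of Cd4 was lost on unfiltered FPKM (-0.20). Without library 5, 3 of 7 tested were lower. B cell markers summed to 17.8 to 40.0 CPM in MHC-IIlo, against 22.7 to 39.0 CPM in MHC-IIhi, nearly all of it Pax5, while the defining genes Cd79a, Cd79b and Ms4a1 were at or near 0.

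The immunoglobulin genes Ighm (-3.45, adjusted p = 5.4e-05) and Jchain (-4.14, adjusted p = 0.0129) were lower at levels near 1 CPM in MHC-IIhi, and the light chain gene Igkc had no count in MHC-IIlo, against 4.50, 1.76, 3.25, 0.110 and 0 CPM in MHC-IIhi, at least 78.4-fold lower (adjusted p = 0.0179). The call of Jchain was lost by limma voom (-1.86), and on unfiltered FPKM (-0.26). The call of Igkc was lost with no filter on low counts (-8.55), and on FPKM with the smaller pseudocount (-2.75). Igkc was at -4.51 by limma voom. Epithelial markers summed to 37.3 to 75.3 CPM in MHC-IIlo, against 34.2 to 66.4 CPM in MHC-IIhi, mostly Krt8. Epcam had no count in MHC-IIlo, against 1.21, 0.416, 0.640, 0.549 and 1.53 CPM in MHC-IIhi, at least 35.4-fold lower (adjusted p = 8.6e-05), and the adhesion gene Cdh1 had 0.918 to 2.49 CPM over the MHC-IIlo libraries, against 8.21 to 10.8 CPM over the MHC-IIhi libraries (log2 fold change -2.64 ± 0.24 (SE), adjusted p = 1.5e-07). Fibroblast markers summed to 44.7 to 77.4 CPM in MHC-IIlo, against 45.7 to 112 CPM in MHC-IIhi, with Pdgfrb (-2.28, adjusted p = 7.4e-04) lower, and endothelial markers to 151 to 359 CPM in MHC-IIlo, against 306 to 453 CPM in MHC-IIhi, with Pecam1 (-1.87, adjusted p = 7.9e-07) lower and Tek, Emcn and Cldn5 at or near 0. Neutrophil markers summed to 487 to 1701 CPM in MHC-IIlo, against 1641 to 2354 CPM in MHC-IIhi, mostly Mmp8 (-0.61, adjusted p = 0.0926), with Ly6g and Ngp at 0. The part of other cells in the subset differences was not tested.

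MHC-IIlo library 5 stood apart in genes of several lists. Among list members with a mean over the 10 lactate libraries of at least 4 on the log2 CPM scale, it was farthest above the other 4 in Ramp3, Il1b, Ptgs2, Aqp9, Cxcl2, Cxcl1, Trib3, Osm, Serpinb2, Asns, Nfkbiz and Il1a, and farthest below in Ly6c2, Fabp4, Fabp5, Fcgr4, Ccl8, Ccl12, Mertk, C1qb, Lpl, Ccl5 and Plac8. Il6, whose mean was under that level, had 15.4 CPM there as given above, against 0.0445 to 0.758 CPM in the other MHC-IIlo libraries. Of the genes listed here, Ramp3 (-4.96, adjusted p = 1.5e-06), Ptgs2, Cxcl2, Cxcl1, Serpinb2 (-1.55, adjusted p = 9.0e-04), Fabp4 (1.5, adjusted p = 0.00317), Fabp5 (1.19, adjusted p = 0.00374) and C1qb (1.24, adjusted p = 0.0145) passed in edgeR without library 5 and did not with it. Fabp5, a fatty acid binding protein, had 122 CPM there and 1766 CPM in MHC-IIlo library 3. Its levels of H2-Ab1, H2-Aa, H2-Eb1, Cd74, Ciita and Ccr7 were the lowest of all 10 libraries.

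**Figure D4:**
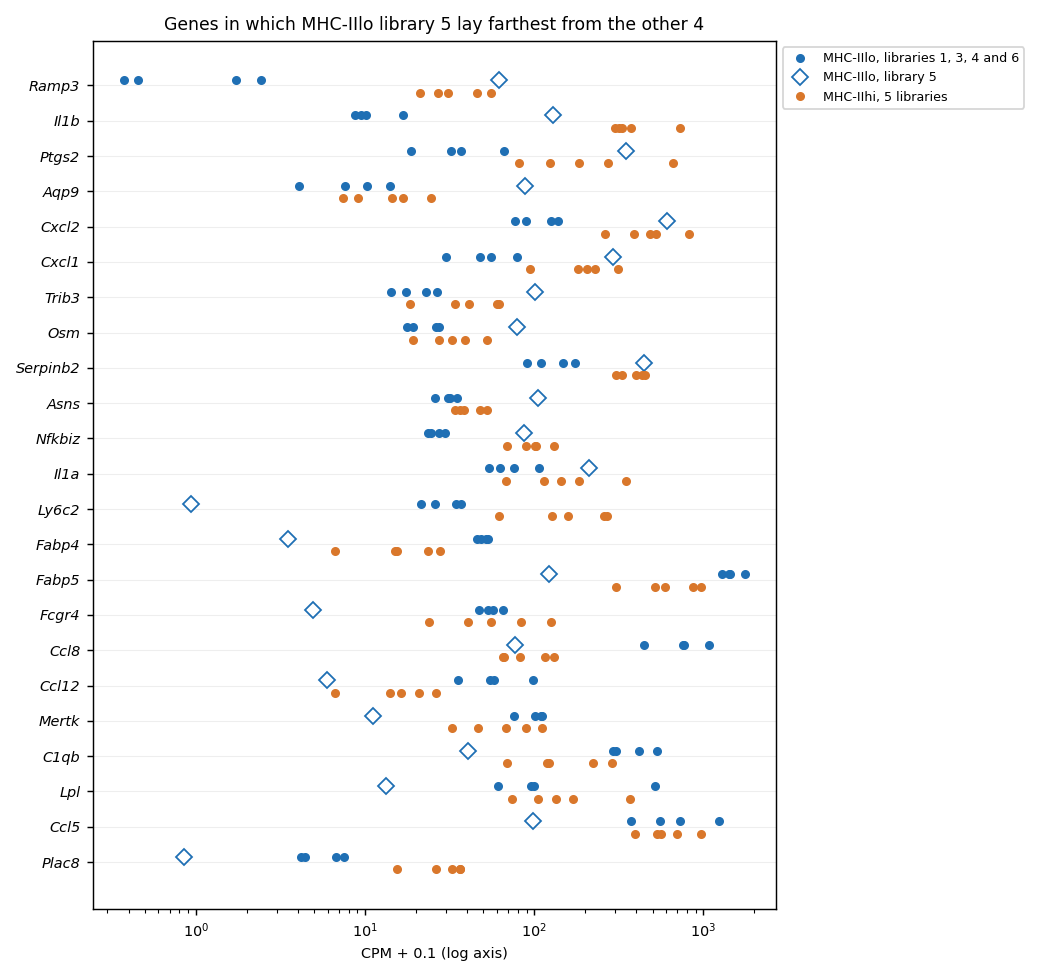
For the 12 list members, of those with a mean of at least 4 on the log2 CPM scale, in which MHC-IIlo library 5 lay farthest above the other 4 MHC-IIlo libraries, and the 11 in which it lay farthest below, the x axis gives the level as CPM + 0.1 on a log axis, with library 5 as an open diamond, the other MHC-IIlo libraries in blue and MHC-IIhi libraries in orange. In the upper genes other than Il1b the diamond reaches or passes the MHC-IIhi points, as for Cxcl1 at 292 CPM, and in the lower genes it lies below the other MHC-IIlo points, as for Mertk at 11.1 CPM.

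The same subset comparison in cells cultured 24 h without lactate gave 1249 genes higher in MHC-IIlo (9.19% of 13593) and 1574 lower (11.6%). Genes higher in both cultures numbered 689, which was 55.4% of the lactate calls and 55.2% of the no-lactate calls; genes lower in both numbered 1114, 61.8% of the lactate calls and 70.8% of the no-lactate calls. None was called in opposite directions. Across all genes tested the log2 fold changes had r = 0.848, between comparisons that share no library but share the fit; genes are not independent replicates. A gene called in 1 culture only is not thereby shown to differ between cultures, which is what the interaction tests.

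The interaction, the subset difference with lactate minus that without, was called for no gene (0% of 13593) in edgeR, where the smallest adjusted p was 0.284 and 1011 genes had an unadjusted p under 0.05. DESeq2 called 3 genes and limma voom 2, with Bcl2a1a in both lists (1.03, adjusted p = 0.00251, and 1.15, adjusted p = 0.012). Bcl2a1a is 1 of several near-identical antiapoptotic genes, so its counts are uncertain. Median standard errors were 0.17 for the lactate difference and 0.24 for the interaction. H2-Eb1 had log2 fold changes of -8.36 with lactate and -5.95 without, an interaction of -2.41 ± 0.76 (SE, adjusted p = 0.630). H2-Aa had -7.52 and -5.46 (interaction -2.06 ± 0.69, adjusted p = 0.630), and Il1b had -3.56 and -5.73 (interaction 2.17 ± 0.89, adjusted p = 0.662; the lactate value is -5.2 without library 5). The class II gene H2-Ab1 spread widely among the no-lactate MHC-IIlo libraries, as its SD below shows. The interactions of H2-Eb1 and H2-Aa are not given without single no-lactate libraries. Apoe, at 2.12 with lactate and 2.20 without, and Il4i1, at -6.24 and -6.23, had pairs that lay close together.

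List counts ran alongside in both cultures. Glycolysis genes were 0 higher and 10 lower of 21 with lactate and 0 higher and 15 lower of 21 without, hypoxia response genes 0 higher and 12 lower of 20 with lactate and 0 higher and 16 lower of 20 without, and maturation genes 0 higher and 13 lower of 17 with lactate and 0 higher and 17 lower of 17 without. Cytokine genes were 1 higher and 8 lower of 20 with lactate and 0 higher and 13 lower of 20 without. Lysosomal genes were 14 higher and 1 lower of 30 with lactate and 18 higher and 1 lower of 30 without. Every one of these pairs rests on separate libraries, and none of their genes passed the interaction test in edgeR, as no gene did. The unadjusted interaction p was under 0.05 in 7 of 17 maturation genes (median interaction 0.59) and 7 of 20 cytokine genes (0.31). It was so in 1 of 21 glycolysis (0.29), 2 of 20 hypoxia (0.35) and 0 of 30 lysosomal genes (-0.05), against 1011 of 13593 in all. These values include library 5, which lay far above the other MHC-IIlo libraries in the cytokine genes Il1b and Il6. Their unadjusted edgeR interaction p was 0.0241 and 0.0165. Counts without library 5 are not given, so how far the cytokine count rests on that library was not tested.

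Fresh cells gave 1789 genes higher in MHC-IIlo (14% of 12787) and 1950 lower (15.2%). Genes higher both fresh and after culture with lactate numbered 451, or 38.1% of the lactate calls and 25.6% of the fresh calls, and genes lower in both 618, or 37.7% and 33.0%. In the other 221 genes called in both, the direction was opposite: 82 were higher with lactate and lower fresh, and 139 the other way. The lactate difference minus the fresh difference was also tested over all 30 libraries, a test added after the data were seen. It called 851 of 14015 genes with a positive value (6.07%) and 1124 with a negative one (8.02%). All 221 were among them, but opposite calls from the same libraries nearly fix that outcome, so it adds no support. Fresh and cultured libraries also differ in cell number and handling, which cannot be told apart from culture here. The cultures with and without lactate had the same cell number and length.

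The class II genes and the maturation genes were set beside fresh cells in turn. Means here are with SD over 5 libraries. Fresh and cultured CPM were scaled apart, so here and below levels compare the subsets, not fresh with cultured cells. H2-Ab1 averaged 16.4 ± 6.16 CPM for MHC-IIlo cells, against 1019.8 ± 196 CPM for MHC-IIhi cells with lactate, 29.9 ± 24.2 CPM for MHC-IIlo cells, against 1137 ± 303 CPM for MHC-IIhi cells without it, and 90.5 ± 31.1 CPM for MHC-IIlo cells, against 4951 ± 473 CPM for MHC-IIhi cells in fresh cells, where the log2 fold change was -5.77. Lactate minus fresh was -0.17 ± 0.47 (SE, adjusted p = 0.869). Ccr7 averaged 0.129 ± 0.118 CPM for MHC-IIlo cells, against 125 ± 55.2 CPM for MHC-IIhi cells with lactate and 0.804 ± 0.553 CPM for MHC-IIlo cells, against 5.15 ± 3.08 CPM for MHC-IIhi cells in fresh cells. Its fresh log2 fold change was -2.68, and lactate minus fresh was -7.08 ± 1.14 (adjusted p = 1.1e-04). Ccl22 had -3.51 fresh and a difference of -5.61 (adjusted p = 4.5e-06). Il4i1 did not pass in fresh cells (-0.33, adjusted p = 0.638) and differed by -5.91 (adjusted p = 3.6e-07). Nos2 likewise had 0.12 fresh (adjusted p = 0.752) and a difference of -2.25 (adjusted p = 0.00128).

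Among list members, 18 were called in opposite directions with lactate and fresh. Over all genes called in both, 451 were higher in both, 618 lower in both and 221 opposite. How many list members were called in both is not given here, so the 18 are not read as a result about the lists. Arg1 averaged 616 ± 241 CPM for MHC-IIlo cells, against 2014 ± 484 CPM for MHC-IIhi cells with lactate and 3915 ± 654 CPM for MHC-IIlo cells, against 2050.0 ± 590.5 CPM for MHC-IIhi cells in fresh cells, lower in MHC-IIlo in the culture and higher when fresh (-1.71 and 0.93, difference -2.63 ± 0.39, adjusted p = 3.4e-05). The inflammatory genes Cxcl3 (-1.91 with lactate, 1.54 fresh) and Il6 (-2.54 with lactate, 1.42 fresh), the costimulatory receptor Cd40 (-1.40 with lactate, 0.54 fresh), the glycolytic regulator Pfkfb3 (-1.61 with lactate, 0.60 fresh), complement C3 (-0.63 with lactate, 0.99 fresh), the Fc receptor Fcgr2b (-1.02 with lactate, 0.48 fresh), the protease Mmp14 (-0.86 with lactate, 0.67 fresh) and the transcription factor Maf (-1.05 with lactate, 1.63 fresh) were lower after culture and higher fresh. Scarb1 (0.43 with lactate, -0.40 fresh) went the other way. The other list members with opposite calls were Cxcl5, Bnip3, Ndufs8, Atp5g1, Pdhb, Ckb, Rsad2 and Cmpk2. Without library 5 the lactate calls of Pdhb (0.29, adjusted p = 0.0747), Rsad2 (-0.56, adjusted p = 0.0946) and Cmpk2 (-0.70, adjusted p = 0.0683) were lost, and with them the opposite calls. Mrc1 (1.3 fresh, adjusted p = 4.8e-05) and Apoe (1.66 fresh, adjusted p = 4.4e-04) were higher in MHC-IIlo in both.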

How the data were processed

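The submitters deposited a table of raw gene counts and a table of FPKM values; per the submitters' processing notes, Trimmomatic, STAR and featureCounts were used with GRCm38, and their versions and settings, strand included, are not given in the sources used here. In the deposited FPKM table, values multiplied by gene length had the same sorted distribution in every column. Counts were fitted here with edgeR 4.0.16 (R 4.3.3; filterByExpr, TMM, robust quasi-likelihood F test, 2-sided) over all 20 cultured libraries with group means, fresh libraries alone, with Benjamini-Hochberg adjustment over all genes tested; the SE is the absolute log2 fold change over the square root of F. CPM uses TMM-scaled library sizes, with cultured and fresh libraries scaled apart. Alternatives were RLE factors, no filter, DESeq2 1.42.0, limma 3.58.1 (voom, or log2 FPKM with pseudocount 1 or 0.1), other sets of libraries and a block on the header number. Named genes were the 12 largest differences each way (mean log2 CPM at least 4, groups not overlapping), the 3 smallest p of each of 43 lists, and further list members. The members and lists were chosen with earlier results of these data known. The test was checked on simulated counts. Genes carry the symbols of the count table, and list symbols without a match there numbered 3. Libraries of 1 group were never identical. Some list members are not reported here.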

Additional observations from a re-analysis of the deposited data

Results flagged for a closer look

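In 341 groups of 5 libraries (the named genes in either lactate group), 38 held a library far from the other 4, its gap over 0.71 of the group's range; chance flags about 1 in 20 groups. MHC-IIlo library 5 accounted for 23 of them. It lay above the other MHC-IIlo libraries, in CPM, at Ptgs2 349.6, Rel 50.7, Cd14 471, Il1b 129, Il6 15.4, Cxcl3 857, Cxcl1 292, Cxcl2 610.4, Nr4a3 0.834, Slc7a11 229.6 and Mthfd2 106. It lay below them, in CPM, at Ctss 2896, Pdcd1lg2 0.292, Ppbp 19.4, Pf4 386, Gas6 21.02, Itgam 452, Apoe 612, Dio2 54.7, Ctsd 3369.7, Ctsc 99.8, Timp2 144 and Erap1 107. Among MHC-IIlo libraries, library 1 was high in Il10 1.33, Fn1 108 and Lox 4.85, library 4 was high in Spp1 3131 and Mx2 53.6 and low in Idh2 43.3 CPM. Among MHC-IIhi libraries, library 1 was high in H2-DMb1 70.5, Myd88 224 and Tlr9 92.4, library 3 was low in Mthfd2 62.3, library 4 was low in Batf3 1.17, library 6 was high in H2-Oa 2.27, H2-Ob 1.48 and Il1b 726 and low in Ccl2 402 CPM.

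The subset difference after culture with lactate differed from that in fresh cells, by the test of the difference over all 30 libraries, in 14 of the genes whose fresh values are given. The log2 fold change with lactate minus that in fresh cells was Ccr7 -7.08, Ccl22 -5.61, Il4i1 -5.91, Cd40 -1.93, Nos2 -2.25, Arg1 -2.63, Il6 -3.97, Cxcl3 -3.44, C3 -1.61, Fcgr2b -1.49, Scarb1 0.83, Pfkfb3 -2.20, Mmp14 -1.53 and Maf -2.69. Those other than Ccr7, Ccl22, Il4i1 and Nos2 were named for their opposite calls, which nearly fixed this outcome for them.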

How the results depend on the processing

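Of 168 named genes that passed, 139 kept the call under every alternative examined for them and none changed sign. Fits that left out a single no-lactate library, and settings whose filter dropped the gene, were not examined for this. The count of 3046 (1244 higher, 1802 lower) was 1892 (728 and 1164) with the 10 lactate libraries fitted alone, and 1978 were higher on unfiltered FPKM; it ranged from 2437 to 3468 (higher 926 to 1607, lower 1505 to 1871) on leaving out each lactate library and from 2895 to 3117 (higher 1169 to 1323, lower 1726 to 1831) on leaving out each no-lactate library. The no-lactate count was 4322 by limma voom (2018 higher), and ranged from 2694 to 3375 (higher 1147 to 1487, lower 1535 to 1888) and 2207 to 2634 (higher 879 to 1090, lower 1328 to 1589) on leaving out lactate and no-lactate libraries. The fresh count ranged from 3205 to 3676 (higher 1497 to 1858, lower 1572 to 1889). Interaction calls were 3 by DESeq2, 2 by limma voom, 1 with all 30 libraries, 0 to 8 on leaving out lactate libraries (8 without lactate MHC-IIlo 1) and 0 to 1 on leaving out no-lactate libraries (1 without no-lactate MHC-IIhi 7). Genes that never passed reversed in sign: Adgre1 was 0.21 on FPKM, and Ctss was -0.06 with the header number as a block and -0.08 to 0.22 on leaving out single libraries. The causes were not tested.

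Same-numbered lactate libraries deviated together with r of 0.484, 0.144, 0.271, 0.299 and -0.0423, and fresh ones with 0.0986, 0.401, 0.565, 0.388 and 0.344, so 1 pair in each stayed under 0.1 and the numbers were not taken to pair them. Of the 5 fresh MHC-IIlo libraries, 4 correlated best with their own number. Correlations this few and uneven cannot exclude pairing, and the main p-values treat the subsets as unpaired. With the header number as a replicate block, 1570 genes were higher and 2124 lower, 4 interactions were called, and the fresh counts were 2438 and 2595. In the cultured fit only the lactate libraries carried the block, and the no-lactate libraries had none. Those 4 interactions therefore set a blocked difference against an unblocked one and do not check pairing in the interaction. With this block Ptgs2 (-1.93, adjusted p = 0.0320), Cxcl1 (-1.44, adjusted p = 0.00428), Cxcl2 (-1.68, adjusted p = 0.00310) and Ldha (-0.45, adjusted p = 0.0287) passed, Il6 was at -4.22, and Ccl12 (1.33, adjusted p = 0.0534) did not pass. With the block and without MHC-IIlo 5, Cxcl10 (-1.34, adjusted p = 0.0749), H2-DMa (-0.71, adjusted p = 0.0777), Nqo1 (0.39, adjusted p = 0.113) and Igkc (-8.76, adjusted p = 0.05) did not pass, and Ifi30 (0.59, adjusted p = 0.0454) did. Leaving out both MHC-IIlo 5 and no-lactate MHC-IIlo 3, added after the data were seen, gave 1478 and 1884. On simulated counts, the share of genes with a known change recovered was 90.3% at a log2 change of 2 and 63.2% at 1. The simulation changed far fewer genes than were called here and had no outlying library, so these shares need not hold for the data.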
